A study of Mus musculus with 20 samples.

Results

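The thermogenic and uncoupling genes described here are Ucp1, Ucp2, Ucp3, Dio2, Prdm16, Ppargc1a, Ppargc1b, Cox7a1 and Cox8b. They were chosen by name, as every non-control probe whose symbol in the array files, or whose current symbol by accession, was one of the 9. They were read by 14 of the 41174 non-control probes on the array, or 9 of 28786 symbols, and all 9 had at least 1 probe. RNA came from liver and white adipose tissue (WAT) of male C57BL/6 mice. The animals were 7 months old and had spent 21 weeks on a high-fat diet (HFD), with fat at 35% of the chow. WT(HFD) animals were wild type, and CD44KO(HFD) animals carried a whole-body deficiency of Cd44, the gene of a cell surface receptor for hyaluronan, on a C57BL/6J background. Each genotype and tissue had 5 samples, each read on 1 single-dye Agilent array, 20 arrays in all. Every group ate the HFD, so no value below compares a diet with another, and the labels name neither the fat depot nor which WAT and liver samples came from the same mouse.

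Uncoupling proteins sit in the inner mitochondrial membrane. UCP1 lets protons return to the matrix without making ATP, which turns fuel into heat in brown and beige fat cells. UCP2 is found in many cells, macrophages among them, and UCP3 mainly in skeletal muscle and brown fat, and their transport function is less settled. Dio2 makes the active thyroid hormone inside the cell, PRDM16 is a transcription factor that sets brown fat identity, and PGC-1α and PGC-1β (Ppargc1a and Ppargc1b) are coactivators that turn on mitochondrial genes. Cox7a1 and Cox8b encode subunit forms of cytochrome c oxidase that are typical of heart, muscle and brown fat. In white fat, joint high levels of these genes are used as a sign of browning, and in liver the PGC-1 coactivators serve fasting metabolism and fat oxidation.

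The 3 probes on which the results below turn are shown as they are on the array, 5′ to 3′ and in lower case, because they define which stretch of each transcript gave the signal. The Ucp1 probe (NM_009463) lies at chr8:81866808-81866867 on the plus strand and the brightest Ucp2 probe (NM_011671) at chr7:96545541-96545600 on the plus strand, in build mm7, the build of the files. The files give no position for the Cox7a1 probe (NM_009944). No base is marked by capitals. The longest run of bases shared by any pair of the 9 brightest probes was 10 of their 60 bases.
Ucp1: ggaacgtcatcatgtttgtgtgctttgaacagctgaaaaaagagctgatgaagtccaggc
Ucp2: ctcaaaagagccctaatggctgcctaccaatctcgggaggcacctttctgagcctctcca
Cox7a1: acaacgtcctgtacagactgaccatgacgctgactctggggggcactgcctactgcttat

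Values are log2 of the processed signal minus the 75th percentile of the array, so that 0 stands for the 75th percentile. They compare 1 probe across arrays and not one probe with another. A spot is called well above background where the scanner software marked it so. That share was between 57.4% and 61.9% of spots on the liver arrays and between 63.2% and 89.5% on the WAT arrays, and the highest share was that of WT(HFD) WAT replicate 1, whose correlation with other arrays of its group was as low as 0.825 across probes. Without it the WT(HFD) WAT arrays correlated at 0.971 to 0.988, and the genotype differences of the members and of the gene lists in WAT are also given without it. Cd44 itself had a log2 difference between CD44KO(HFD) and WT(HFD) of -4.57 in WAT (limma adjusted p = 7.64e-06) and -4.21 in liver (limma adjusted p = 6.65e-06), without overlap between genotypes in either tissue. The labelled tissues carried their markers, since the summed level of 9 hepatocyte genes, in multiples of the 75th percentile, was 3370 to 4510 in liver and 5.84 to 67.8 in WAT, and that of 12 adipocyte genes was 544 to 1380 in WAT and 207 to 337 in liver. Of the adipocyte list Pck1 alone was brighter in liver, with WT(HFD) means of 7.33 there and 4.28 in WAT, and it weighs in the liver sum.

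**Figure D1:**
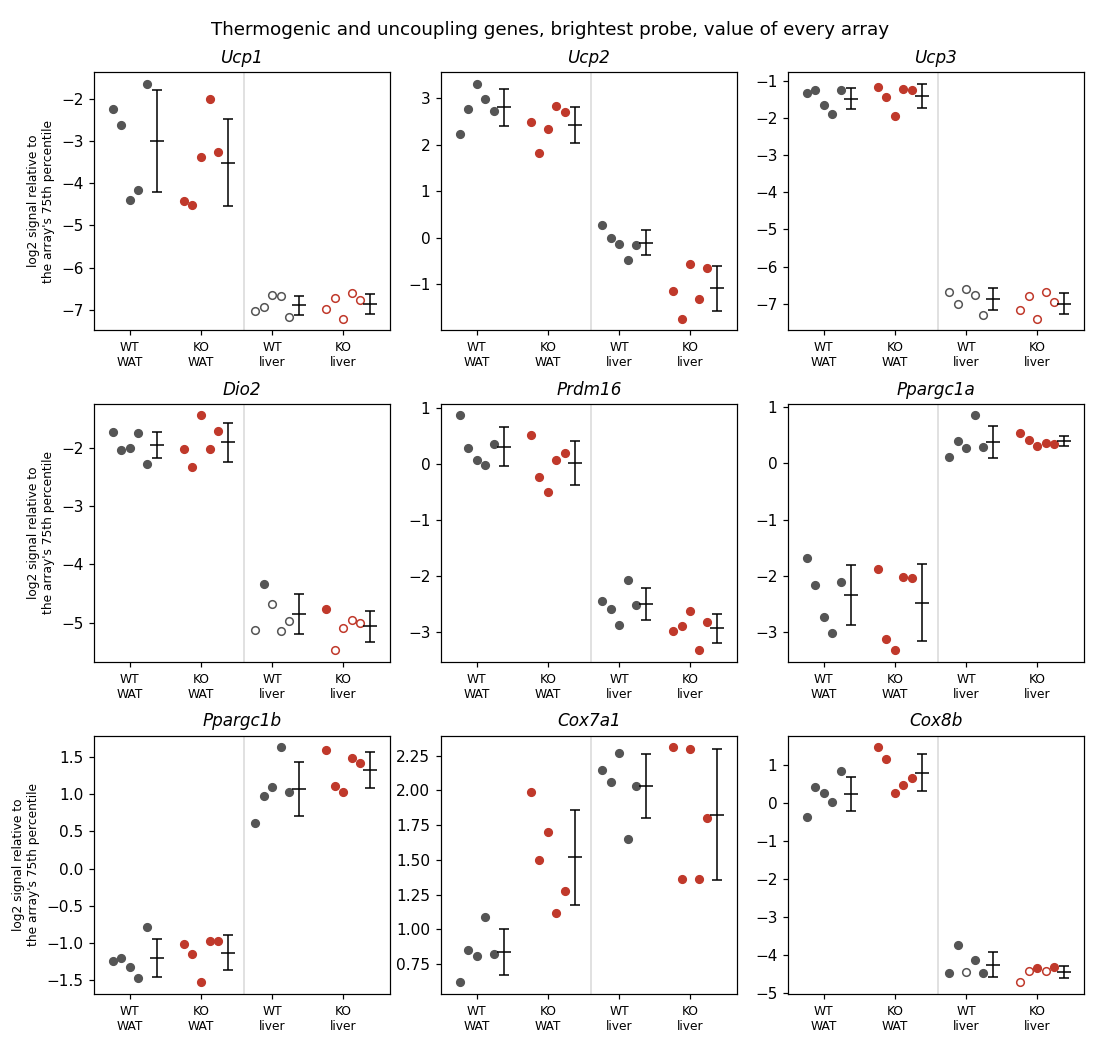
Each panel plots 1 gene, read by its brightest probe, with the log2 signal relative to the array's 75th percentile on the y axis (each panel has its own range) and the 4 groups on the x axis. Points are single arrays in replicate order, open where the spot was not well above background, and bars give the mean ± SD of 5 arrays. Ucp2 in liver and Cox7a1 in WAT are the panels in which the genotypes do not overlap, and Ucp1 in WAT spreads over 2.75 log2 units among WT(HFD) arrays.

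In WAT, none of the 9 genes passed the test between CD44KO(HFD) and WT(HFD). Of 27654 probes tested in WAT, 0.0398% passed an adjusted p of 0.05, so that a count of 0 among 9 members is near the background. By the brightest probes, 1 of the 9 members had an unadjusted p under 0.05, as did 14.9% of all probes. Among the brightest probes Cox7a1 had the lowest adjusted p, and Cox8b and Cox7a1 had the highest log2 fold changes in favour of CD44KO(HFD). The second Ppargc1a probe was above both, at 0.98 (limma adjusted p = 0.221). Ucp1 varied more among arrays of 1 genotype than between genotypes. The median log2 fold change was 0.05 over the members and -0.06 over all probes tested, and 5 members were higher and 4 lower. In whole-tissue RNA such as this, fewer cells of a type and less RNA per cell cannot be told apart.

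Ucp1 was well above background on all 10 WAT arrays. Its log2 signal was -2.24, -2.62, -4.39, -4.15 and -1.64 in WT(HFD) replicates 1 to 5. It was -4.43, -4.51, -3.37, -2.0 and -3.26 in CD44KO(HFD). Both genotypes held arrays with high and with low Ucp1, and the lowest and the highest array of WT(HFD) differed 6.72-fold and those of CD44KO(HFD) 5.69-fold. The difference between genotypes was -0.51 ± 0.64 (SE), with a 95% interval from -1.93 to 0.91 and a limma adjusted p of 0.694.

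The other uncoupling proteins were also close between genotypes in WAT. The log2 signal of Ucp2 was 2.24, 2.77, 3.32, 2.99 and 2.72 in WT(HFD) and 2.49, 1.83, 2.34, 2.83 and 2.70 in CD44KO(HFD). The CD44KO(HFD) values lay inside or just below the WT(HFD) range, and the difference was -0.37 ± 0.25 (SE, limma adjusted p = 0.485). The other Ucp2 probes had differences of -0.54 and -0.55 in WAT, and none passed. With arrays scaled to their median, which moved the median of all probes from -0.06 to 0.42, the value of the brightest Ucp2 probe was 0.11. Ucp3 lay between -1.89 and -1.26 in WT(HFD) and between -1.95 and -1.16 in CD44KO(HFD), with a difference of 0.08 ± 0.20 (SE, limma adjusted p = 0.854) and a 95% interval from -0.37 to 0.52.

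Dio2 and Prdm16, the hormone and transcription factor genes of the group, overlapped between genotypes. Dio2 was -1.73, -2.03, -2.0, -1.74 and -2.27 in WT(HFD) WAT and -2.02, -2.32, -1.44, -2.02 and -1.71 in CD44KO(HFD) WAT. The difference was 0.05 ± 0.19 (SE, limma adjusted p = 0.895), the closest to 0 of the 9. Prdm16 was 0.86, 0.28, 0.06, -0.02 and 0.35 in WT(HFD) and 0.52, -0.23, -0.50, 0.06 and 0.19 in CD44KO(HFD). Its difference was -0.29 ± 0.23 (SE, limma adjusted p = 0.55), and WT(HFD) replicate 1 was its highest array.

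The coactivators gave values that depended on the probe. The brightest Ppargc1a probe (NM_008904) was -1.68, -2.16, -2.72, -3.01 and -2.10 in WT(HFD) WAT and -1.88, -3.11, -3.32, -2.01 and -2.04 in CD44KO(HFD) WAT, and its difference of -0.14 ± 0.36 (SE) had a limma adjusted p of 0.855. The dimmer Ppargc1a probe, which reads the cDNA AK032149, was -4.46, -3.30, -3.91, -3.84 and -3.16 in WT(HFD) and -3.36, -2.43, -2.06, -3.09 and -2.80 in CD44KO(HFD). All 5 CD44KO(HFD) arrays of the dimmer probe were above the WT(HFD) mean, with 1 WT(HFD) array not well above background, and the difference was 0.98 ± 0.31 (SE, limma adjusted p = 0.221). Over the 10 WAT arrays the Ppargc1a probes correlated at r = -0.48, a description with no test. In liver they correlated at r = 0.40. The 3 Ppargc1b probes had differences of 0.07, -0.33 and -0.12 in WAT, none past the test, and correlated with each other at r between 0.55 and 0.67.

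The oxidase subunits were the members with the highest log2 fold changes among the brightest probes. Cox7a1 was 0.62, 0.85, 0.81, 1.09 and 0.82 in WT(HFD) WAT and 1.99, 1.5, 1.7, 1.12 and 1.28 in CD44KO(HFD) WAT. The lowest CD44KO(HFD) array was above the highest WT(HFD) array, a pattern that 6.18% of all probes tested showed in either direction and 4.1% showed with CD44KO(HFD) higher. The ratio of the group means was 1.6, with a log2 difference of 0.68 ± 0.19 (SE) and a 95% interval from 0.27 to 1.10. Its limma adjusted p over all probes was 0.192, and an exact permutation test (two-sided, 252 relabellings of the arrays) gave p = 0.0079, the smallest that 5 arrays against 5 allow. The difference was 0.54 within slide 4, which held 2 arrays of each genotype, and 0.87 within slide 5, which held 3 of WT(HFD) and 1 of CD44KO(HFD).

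Cox8b was -0.38, 0.42, 0.26, 0.01 and 0.83 in WT(HFD) WAT and 1.46, 1.14, 0.25, 0.48 and 0.65 in CD44KO(HFD) WAT. Its difference was 0.57 ± 0.29 (SE, limma adjusted p = 0.381), the groups overlapped, and the values within slides were 1.08 on slide 4 and -0.26 on slide 5. Without WT(HFD) WAT replicate 1, the difference of Cox7a1 was 0.63 (limma adjusted p = 0.182) and that of Cox8b 0.41 (limma adjusted p = 0.495). That of Ucp1 was then -0.32, that of Ucp2 -0.51, those of Ucp3 and Dio2 0.11 each, and that of Prdm16 -0.15. The brightest Ppargc1a probe turned from -0.14 to 0.02, and Ppargc1b stayed at 0.07. With that array left out, 0 of the 9 members passed, 0.136% of all 27264 probes tested did, and the members' median was 0.07 against 0.04 for all probes. With arrays weighted by their quality, Cox7a1 passed at a difference of 0.38 (limma adjusted p = 0.033), but so did 5292 probes in all. WT(HFD) replicate 1 had the lowest weight, 0.0866. The highest weights were those of CD44KO(HFD) replicates 5 and 4, 9.38 and 3.12, and the other CD44KO(HFD) arrays had 0.277 to 0.604.

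**Figure D2:**
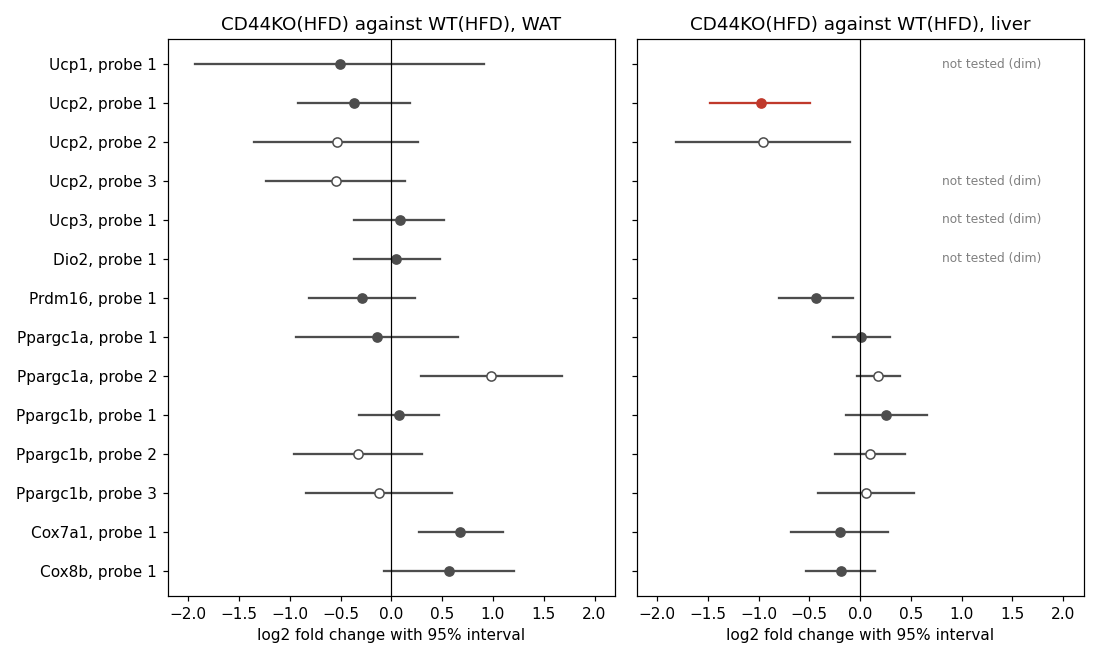
The log2 fold change of CD44KO(HFD) against WT(HFD) is on the x axis, in WAT on the left and in liver on the right, with a row for each of the 14 probes. Points are estimates and lines 95% intervals from limma, filled for the brightest probe of a gene, and red for the value that passed an adjusted p of 0.05. The brightest Ucp2 probe in liver at -0.98 is the single red point.

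No marker of another cell type passed the test in WAT, and their levels are given beside these values. All 12 adipocyte markers were higher in CD44KO(HFD) WAT, with a median of 0.77 (0.62 without WT(HFD) replicate 1), and their summed level was 544 to 946 in WT(HFD), 803 to 946 without replicate 1, and 813 to 1380 in CD44KO(HFD). Of 12 macrophage markers, 11 were lower in CD44KO(HFD) WAT, with a median of -0.53 against -0.06 over all probes (12 lower and the same median without replicate 1). With median scaling 7 were lower, with a median of -0.05 against 0.42 over all probes. With quantile normalization 12 were lower, with a median of -0.75 against 0.11. By the main scaling, the summed levels of the macrophage markers were 355 to 501 in WT(HFD), 417 to 501 without replicate 1, and 329 to 466 in CD44KO(HFD). All 8 mesothelium markers were lower, with a median of -2.32 (-2.23 without replicate 1) and summed levels of 2.58 to 12.9 in WT(HFD) against 1.13 to 4.07 in CD44KO(HFD). Of 15 muscle genes, a source in which Ucp3, Cox7a1 and Cox8b are also high, 14 were tested in WAT, 6 of them higher and 8 lower in CD44KO(HFD), with a median of -0.11. Without replicate 1 this turned to 10 higher and 4 lower, with a median of 0.31. Their summed level, in which bright genes weigh most, was 5.34 to 8.58 in WT(HFD), 5.34 to 6.14 without replicate 1, and 7.22 to 10.5 in CD44KO(HFD). All 9 hepatocyte markers were higher in CD44KO(HFD) WAT, with a median of 0.82 (0.93 without replicate 1). Their summed levels overlapped, at 5.84 to 49 in WT(HFD) and 15.4 to 67.8 in CD44KO(HFD). Of 9 epididymis genes, 3 were tested in WAT, all lower with a median of -0.24, and all higher with a median of 0.31 without replicate 1. The part of these markers in the values of Cox7a1, Cox8b and the other members was not tested.

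In liver, Ucp2 was the 1 member that passed the test. It was 1.98-fold lower in CD44KO(HFD) than in WT(HFD). Ppargc1a and Ppargc1b, the coactivators with well-known roles in liver, had differences of 0.01 and 0.26 and did not pass. Of the 9 genes, 6 were bright enough in liver to be tested, 2 of them higher and 4 lower, with a median of -0.20 against 0.08 over all probes. Of 24689 probes tested in liver, 13.6% passed, made up of 7.85% higher and 5.75% lower in CD44KO(HFD), so that 1 of 6 is near the background.

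The log2 signal of Ucp2 was 0.27, -0.01, -0.14, -0.47 and -0.16 in WT(HFD) liver. It was -1.15, -1.74, -0.57, -1.31 and -0.66 in CD44KO(HFD) liver. Every CD44KO(HFD) array was below every WT(HFD) array, as for 4.22% of all probes tested with CD44KO(HFD) lower and 11.7% in either direction. The difference was -0.98 ± 0.22 (SE), with a 95% interval from -1.48 to -0.49, a limma adjusted p of 0.0235 and an exact permutation p of 0.0079, the smallest possible. It was -1.29, -0.67 and -1.01 within the 3 liver slides, each of which held both genotypes. The limma adjusted p was 0.0118 with the slide as a fixed block and 0.0447 with normexp background correction. The call was lost with the replicate number as a block (limma adjusted p = 0.0513) and without the filter on dim probes (limma adjusted p = 0.0545).

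The other Ucp2 probes bear on that call. The second probe was -2.28, -2.82, -3.22, -3.51 and -3.02 in WT(HFD) liver and -3.67, -5.16, -3.28, -4.41 and -3.11 in CD44KO(HFD) liver, where 3 of 5 arrays were well above background. It had a similar difference of -0.96 ± 0.39 (SE), overlapping groups and a limma adjusted p of 0.12, and it followed the first probe at r = 0.94 over the 10 liver arrays. No liver array had the third probe well above background. The mean of the probes that passed the filter gave -0.97 with a limma adjusted p of 0.0582. The call of the brightest probe was lost when WT(HFD) liver replicate 1 or 2 or CD44KO(HFD) liver replicate 1 or 4 was left out, at limma adjusted p of 0.0528, 0.0584, 0.0534 and 0.0586, with differences of -0.89, -0.96, -0.97 and -0.93.

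**Figure D3:**
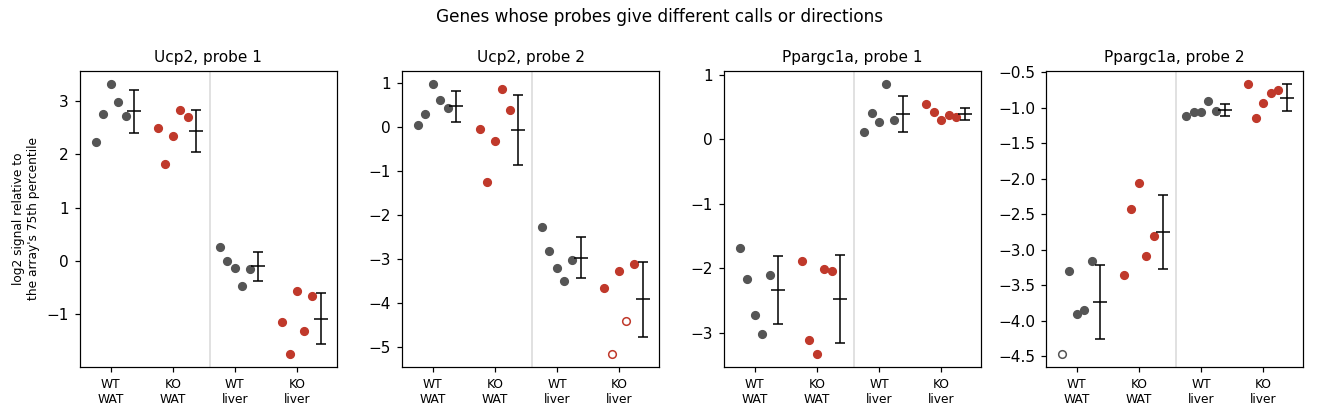
The log2 signal relative to the array's 75th percentile is plotted for the brightest and the next probe of Ucp2 and of Ppargc1a, with points for single arrays (open where not well above background), the mean ± SD of 5 arrays, and a y range of its own for each panel. Both Ucp2 probes are lower in CD44KO(HFD) liver, while the Ppargc1a probes differ in WAT by -0.14 and 0.98.

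Macrophage markers, of cells in which Ucp2 is also expressed, gave values in liver beside it. Of 12 such genes 11 were tested, 7 lower and 4 higher in CD44KO(HFD) liver, with a median of -0.55 over the list. Of the 7 lower, 2 passed, Itgax at -2.01 (limma adjusted p = 0.0284) and Clec7a at -1.71 (limma adjusted p = 0.0303). The 4 higher were Adgre1 at 0.50, Mrc1 at 0.49, Csf1r at 0.07 and C1qa at 0.02, and none of them passed. The summed level of the list overlapped, at 53.5 to 123 in WT(HFD) and 47.9 to 134 in CD44KO(HFD). For this list and the adipocyte list, the share called lower over all probes tested in liver was 5.75%. Of the adipocyte list, 7 genes were tested in liver and 2 fell, Cidec by 2.12 (limma adjusted p = 0.0486) and Aqp7 by 1.89 (limma adjusted p = 0.0346), both genes of lipid handling that a fatty liver can express. In CD44KO(HFD) liver only 1 of 5 arrays had Aqp7 well above background, against 4 of 5 in WT(HFD), so the size of its difference rests on signal near background. Under normexp background correction Clec7a kept its call, at -1.63 (limma adjusted p = 0.0333), while Itgax was -1.28 (limma adjusted p = 0.088), Cidec -2.18 (limma adjusted p = 0.0522) and Aqp7 -0.40 (limma adjusted p = 0.479). Their part in the Ucp2 value was not tested.

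Among the other members in liver, Prdm16 was the closest to the threshold. It was -2.44, -2.59, -2.88, -2.07 and -2.52 in WT(HFD) and -2.99, -2.90, -2.62, -3.33 and -2.83 in CD44KO(HFD), a difference of -0.43 ± 0.16 (SE, limma adjusted p = 0.099) with all 5 CD44KO(HFD) arrays below the WT(HFD) mean. The Prdm16 difference was -0.04 under normexp (limma adjusted p = 0.911). Ppargc1a was 0.11, 0.40, 0.27, 0.85 and 0.29 in WT(HFD) and 0.54, 0.42, 0.30, 0.37 and 0.34 in CD44KO(HFD), a difference of 0.01 ± 0.13 (SE, limma adjusted p = 0.967) whose 95% interval ran from -0.27 to 0.29. Ppargc1b was 0.61, 0.97, 1.10, 1.63 and 1.03 in WT(HFD) and 1.59, 1.11, 1.03, 1.49 and 1.42 in CD44KO(HFD), a difference of 0.26 ± 0.18 (SE, limma adjusted p = 0.354). These coactivator values overlapped between genotypes, and the intervals allow for no change.

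Cox7a1 was 2.15, 2.06, 2.27, 1.65 and 2.03 in WT(HFD) liver and 2.31, 1.36, 2.30, 1.36 and 1.80 in CD44KO(HFD) liver. Its difference of -0.20 ± 0.21 (SE, limma adjusted p = 0.553) ran against its sign in WAT. Cox8b was dim in liver, with 4 of 5 WT(HFD) arrays and 2 of 5 CD44KO(HFD) arrays well above background and a difference of -0.19 ± 0.15 (SE, limma adjusted p = 0.428). Of 15 muscle genes, 8 were tested in liver, and Acta1 fell by 0.90 (limma adjusted p = 0.0254) and Tnni2 by 0.67 (limma adjusted p = 0.0125). Over all probes tested in liver, 5.75% were called lower and 7.85% higher. Of 9 hepatocyte genes, Cyp2e1 rose in CD44KO(HFD) liver by 0.62 (limma adjusted p = 0.0491), and no gene of the mesothelium and epididymis lists passed in liver, with 4 of each tested. None of the last 3 calls held under normexp, at -0.03 for Acta1, -0.28 for Tnni2 and 0.50 for Cyp2e1 (limma adjusted p = 0.958, 0.416 and 0.254). The part of these genes in the oxidase values was not tested. Ucp1 and Ucp3 were not well above background on any liver array, and Dio2 was so on 1 of 5 in each genotype, so none of these 3 was tested in liver.

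The difference between the genotype effects in WAT and liver was tested by an interaction term over all 20 arrays. None of the 9 passed, against 1.15% of 28989 probes tested, and 2 members and 15.8% of all probes had an unadjusted p under 0.05. By the brightest probes, these members were Cox7a1, with an effect higher in WAT by 0.88 ± 0.29 (SE, limma adjusted p = 0.138), and Cox8b, by 0.76 ± 0.34 (SE, limma adjusted p = 0.281). The second Ppargc1a probe had an effect higher in WAT by 0.80 ± 0.33 (SE, limma adjusted p = 0.249). For Ucp2 the difference between tissues was 0.61 ± 0.34 (SE, limma adjusted p = 0.394), so that a call in liver and none in WAT does not show that the tissues differed.

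Between tissues, 6 members were higher in WAT and 3 higher in liver, with the same sign in both genotypes apart from Ucp1 and Cox7a1 under the settings named below. In WT(HFD) all 9 differed between WAT and liver, where 68.3% of 28365 probes did (33.5% higher and 34.7% lower in WAT), and in CD44KO(HFD) 8 of 9 did, where 77% of 28343 probes did (33.4% higher and 43.6% lower). Ucp1, Ucp2, Ucp3, Dio2, Prdm16 and Cox8b were higher in WAT, and Ppargc1a and Ppargc1b were higher in liver. The tissues were hybridized on separate slides, so tissue and slide cannot be told apart. The 75th percentile subtracted was 432.7 to 574.6 on liver arrays and 1541 to 2792 on WAT arrays. All tissue differences are therefore relative to the level of each array.

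Ucp1 was not well above background on any liver array, so its WAT mean was set against a floor. The floor was the lowest signal of any probe well above background on each liver array. The WAT mean was 3.75-fold above it in WT(HFD) and 2.61-fold above it in CD44KO(HFD). The measured differences had a limma adjusted p of 6.93e-05 in WT(HFD) and 1.91e-05 in CD44KO(HFD). Spots not well above background can also lie above this floor, so these folds are not strict lower bounds. With normexp background correction the Ucp1 call was lost, at a log2 difference of 0.78 in WT(HFD) (limma adjusted p = 0.0606) and -0.12 in CD44KO(HFD) (limma adjusted p = 0.788). The WAT mean of Ucp3 was 10.8-fold above the floor in WT(HFD) and 11.3-fold above it in CD44KO(HFD). Under normexp its log2 differences were 1.79 and 1.54, below these folds, which are 3.43 and 3.50 on the log2 scale. Ucp2 was higher in WAT by 2.91 ± 0.21 (SE) in WT(HFD) and by 3.52 ± 0.26 in CD44KO(HFD) on the log2 scale. Dio2 was higher by 2.90 and 3.16, with 1 of 5 liver arrays well above background in each genotype. Prdm16 was higher by 2.80 and 2.94, and Cox8b by 4.48 and 5.24, all with 5 of 5 WAT arrays above the liver mean. With normexp Dio2 was higher by 0.99 and 0.75 and Cox8b by 2.75 and 3.06, still past the test. Without WT(HFD) WAT replicate 1 all 9 members still differed between the tissues of WT(HFD).

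Ppargc1a was lower in WAT than in liver, with log2 differences of -2.72 ± 0.26 (SE) in WT(HFD) and -2.87 ± 0.28 in CD44KO(HFD). Those of Ppargc1b were -2.28 ± 0.20 and -2.46 ± 0.16. Cox7a1 had -1.19 ± 0.14 in WT(HFD) (limma adjusted p = 3.17e-05) and -0.31 ± 0.24 in CD44KO(HFD) (limma adjusted p = 0.268, and 0.06 with median scaling). Whether these Cox7a1 values differ is the interaction above, which did not pass. In order of mean, Cox7a1 ran from 2.03 in WT(HFD) liver to 1.83 in CD44KO(HFD) liver, 1.52 in CD44KO(HFD) WAT and 0.84 in WT(HFD) WAT, and the first 3 of these groups overlapped. Before scaling, the processed signal of Cox7a1 was 3500 to 7120 on WAT arrays and 1270 to 2550 on liver arrays, the reverse order. Unscaled signals overlapped for Ppargc1a (178 to 843 in WAT, 523 to 887 in liver) and Ppargc1b (593 to 1500 and 879 to 1530).

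**Figure D4:**
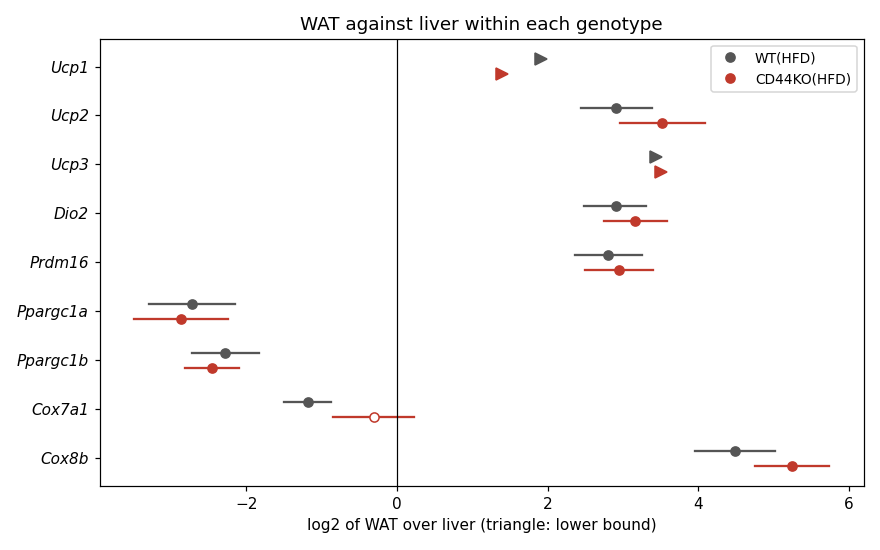
The log2 ratio of WAT over liver is on the x axis for the brightest probe of each gene, in WT(HFD) (grey) and CD44KO(HFD) (red). Points are estimates with 95% intervals, open for the value that did not pass. Triangles, labelled as lower bounds, are for genes well above background on no liver array. They set the WAT mean against the lowest signal of any probe well above background in liver, which is not a strict bound. Ppargc1a, Ppargc1b and Cox7a1 lie left of 0, and the other 6 lie right of it.

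Genes that act with the members were followed in 7 lists, of 115 genes with a probe in all. In WAT 107 were tested and none passed, with a median of 0.11 against -0.06 over all probes, and 0.05 against 0.04 without WT(HFD) WAT replicate 1. In liver 100 were tested and 13 passed, 13% against 13.6% of all probes, 7 of them higher and 6 lower in CD44KO(HFD), with a median of 0.02 against 0.08. With normexp background correction 1 of them passed in liver, where 641 probes passed in all. The count in WAT was 9 when the fit held all 20 arrays, where 1817 probes passed, and 23 with array weights, where 5292 probes passed.

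In the brown and beige fat list, 16 of 24 genes tested in WAT were higher in CD44KO(HFD) and 8 lower, with a median of 0.25 and none past the test. With median scaling it had 20 higher and a median of 0.73 against 0.42 over all probes, and with normexp 13 higher and a median of 0.08 against -0.13. Cidea, a lipid droplet protein of brown fat, had a difference of 0.45 (limma adjusted p = 0.547), Elovl3, a fatty acid elongase, 1.35 (limma adjusted p = 0.295), and Adrb3, the β3-adrenergic receptor, 0.52 (limma adjusted p = 0.535). Without WT(HFD) WAT replicate 1 the list had 15 higher and 9 lower, with a median of 0.22. In liver 19 of the list were tested and 4 fell in CD44KO(HFD), with none called higher, where 5.75% of all probes were called lower. Bmp8b, a secreted factor of the BMP family, fell by 2.91 (limma adjusted p = 0.0128), from 5 to 1 arrays well above background. Pdk4, a kinase that holds back pyruvate oxidation, fell by 1.18 (limma adjusted p = 0.0122), Fabp3, a fatty acid binding protein, by 0.98 (limma adjusted p = 0.0194) and Plin5, a lipid droplet protein of oxidative tissue, by 0.34 (limma adjusted p = 0.0457). The genotypes did not overlap in liver for any of these 4, as for 4.22% of all probes with CD44KO(HFD) lower. Cidea had a liver difference of -2.15 (limma adjusted p = 0.0823) and Elovl3 one of 0.84 (limma adjusted p = 0.206), and neither passed. Cidea was brighter in liver, with WT(HFD) means of 5.87 there and 0.26 in WAT. Under normexp Pdk4 kept its call, at -1.08 (limma adjusted p = 0.0139), and Bmp8b was -0.44, Fabp3 -0.40 and Plin5 -0.45 (limma adjusted p = 0.478, 0.365 and 0.127). By the interaction term, the effects on Fabp3, Pdk4 and Plin5 were higher in WAT than in liver by 1.58, 1.90 and 0.94 (limma adjusted p = 0.0201, 0.0425 and 0.0422). That is 3 of 25 genes tested, where 1.15% of all probes passed, and these interaction calls were not followed under other settings.

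The adrenergic and thyroid list, which holds the receptors, cyclases and kinases upstream of Ucp1 and the other deiodinases, had none of 20 past the test in WAT and none of 18 in liver, with medians of 0.08 (0.17 without WT(HFD) WAT replicate 1) and -0.06. Dio1, the main deiodinase of liver, had a difference of -0.16 there (limma adjusted p = 0.471), and Thrb, a thyroid hormone receptor, 0.39 in WAT (limma adjusted p = 0.353). The list of PRDM16 partners had none of 15 past the test in WAT and none of 12 in liver. In WAT 10 of the 15 were higher with a median of 0.09, and 6 with a median of 0.00 without WT(HFD) WAT replicate 1. Cebpb, which acts with PRDM16 in brown fat commitment, had differences of 0.00 in both tissues (limma adjusted p = 0.995 in WAT and 0.993 in liver).

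Of the PGC-1 partners, 25 were tested in liver, 5 rose and 1 fell in CD44KO(HFD), with a median of 0.13. Over all probes tested in liver 7.85% were called higher and 5.75% lower, with a median of 0.08. The 5 were the mitochondrial RNA polymerase Polrmt (0.46, limma adjusted p = 0.00952), the mitochondrial transcription factors Tfb2m (0.38, limma adjusted p = 0.0241) and Tfb1m (0.36, limma adjusted p = 0.0446), the nuclear factor Gabpa (0.32, limma adjusted p = 0.0397), and Crtc2, a CREB coactivator (0.58, limma adjusted p = 0.0214). Mef2c, a transcription factor of muscle and blood vessel cells, fell by 0.63 (limma adjusted p = 0.0121). Tfam, Nrf1 and Esrra, the best known partners, had liver differences of -0.24, 0.02 and 0.16 and did not pass. With normexp background correction none of the list passed in liver. In WAT none of 25 passed, with a median of 0.10 (0.05 without WT(HFD) WAT replicate 1).

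Among 6 other mitochondrial carriers, Slc25a25, an ATP-Mg carrier, rose in CD44KO(HFD) liver by 0.83 (limma adjusted p = 0.041), and the adenine nucleotide carriers Slc25a4 and Slc25a5 had differences of -0.16 and 0.00. Of 14 cytochrome c oxidase subunits tested in liver, Cox7c rose by 0.35 (limma adjusted p = 0.0342). Cox7a2 and Cox8a, the widely expressed counterparts of Cox7a1 and Cox8b, had differences of 0.39 and 0.32 in WAT (limma adjusted p = 0.47 and 0.452), beside 0.68 and 0.57 for Cox7a1 and Cox8b, and 11 of 13 subunits tested in WAT were above 0 with a median of 0.19, against -0.06 over all probes. Without WT(HFD) WAT replicate 1, 9 of the 13 were above 0 with a median of 0.06 against 0.04, and with quantile normalization 9 with a median of 0.05 against 0.11. The carriers' median in WAT was 0.19, and 0.15 without that replicate. Of the genes of creatine and calcium cycling, 8 were tested in each tissue, with a median of -0.12 in WAT (-0.10 without that replicate), and Ckb, the cytosolic creatine kinase of brain and brown fat, fell in liver by 0.56 (limma adjusted p = 0.0431). Slc25a25, Cox7c and Ckb did not pass under normexp (limma adjusted p = 0.15, 0.357 and 0.0866). Their lists had 1 call each in liver, where 13.6% of all probes passed.

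**Figure D5:**
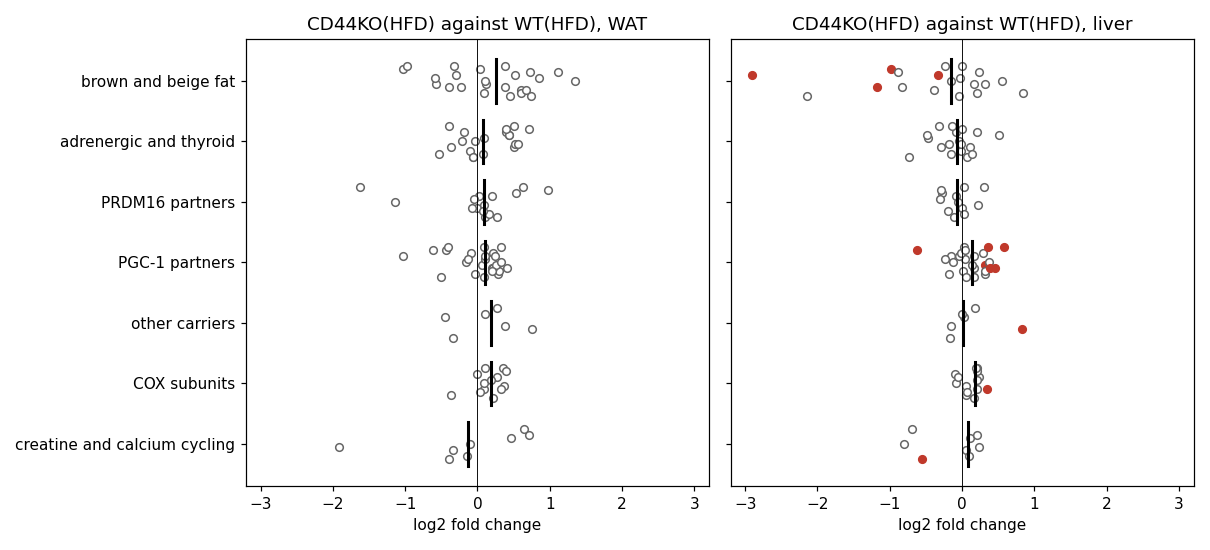
The log2 fold change of CD44KO(HFD) against WT(HFD) is on the x axis for each tested gene of 7 lists, in WAT on the left and in liver on the right. Points are genes, filled red where the adjusted p was under 0.05, and black bars are list medians. No point is red in WAT, and in liver the brown and beige fat list holds 4 red points, all left of 0.

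The members did not vary together as 1 group across the 10 WAT arrays. These correlations are descriptions with no test, over arrays of both genotypes that share a tissue and, in part, slides. By its brightest probe, Ppargc1a followed Prdm16 (r = 0.89) and Ucp3 (r = 0.85), and Ucp3 followed Ppargc1b (r = 0.88). The dimmer Ppargc1a probe ran against the brightest one in WAT (r = -0.48), so the Ppargc1a values hold for that probe alone. Ucp1 had r = 0.55 with Ppargc1a and -0.55 with Cox7a1, and Cox7a1 had r = 0.66 with Cox8b. Dio2 had r = -0.63 with Ppargc1b and -0.59 with Cox8b. Without WT(HFD) replicate 1 the first 3 of these values were 0.89, 0.89 and 0.90. In liver Ppargc1a and Ppargc1b had r = 0.77 by their brightest probes and 0.96 with the dimmest Ppargc1b probe.

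Over all named genes tested in WAT, the 3 closest to Cox7a1 by Pearson r over 10 arrays were Fam161a (0.985), Rbx1 (0.981), a subunit of ubiquitin ligases, and Ss18l2 (0.978). For Cox8b they included Retn (0.985), the hormone resistin of fat cells, and Nid2 (0.977), a basement membrane protein. For Ucp1 the highest values were lower, with Chl1 at 0.883, Ass1 at 0.868 and Icos, a T cell receptor, at 0.868. For Ucp2 in WAT they were Ddx3x (0.974), an RNA helicase, Klf3 (0.956) and Fzr1 (0.955). For Prdm16 they were Inpp4b (0.969), Wnt5a (0.962) and Fign (0.947), and for Dio2 Nras (0.946), Zfp30 (0.925) and Pbk (0.923). For Ucp3, Ppargc1a and Ppargc1b in WAT the highest r was 0.883, 0.892 and 0.884, and members were among each other's closest 3, Ppargc1b for Ucp3, Ucp3 for Ppargc1b and Prdm16 for Ppargc1a. In liver, where the genotype difference enters each value, Ucp2 was closest to Ppfia4 (0.993), Prrx1 (0.992) and Natd1 (0.986). Such values are the highest among all genes tested and rest on 10 arrays.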

How the data were processed

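The authors deposited 1 feature file per array and a table of the whole series, both of linear processed-signal intensity. Per the file headers, Feature Extraction 9.5.3.1 had corrected trends within arrays, with no scaling between them, and that table equals the feature files. The log2 intensity was taken, each array's 75th percentile over non-control spots was subtracted, and spots of a probe were averaged. The authors' files give the symbols, updated through accessions where RefSeq held them. Each gene was read by its brightest probe. Probes entered the test where 3 or more of the 5 arrays of a group were well above background, and were compared with limma 3.58.1 (lmFit and eBayes, R 4.3.3, with statmod 1.5.0 and the data.table package, version 1.17.8), with Benjamini-Hochberg adjustment over all probes tested and a threshold of 0.05. Folds against a group with no such array set the other mean against the lowest signal of any probe well above background. They are not strict lower bounds. Slide 6 held CD44KO(HFD) WAT alone, and precision is limited by how many arrays there are. Replicate numbers came from the labels, which do not say whether samples were separate animals, so p-values measure the spread between samples. The 9 members, all their probes and the pathway and marker lists were chosen with earlier results of these data known, and genes of the lists were named where they passed the test (at most 5 per list and tissue, for markers 3) or were fixed by symbol. Alternatives were normexp background correction (offset 50), quantile and median scaling, other filters, slide and replicate blocks, array weights, all 20 arrays in 1 fit, other probes and leaving out each array. A gene close to Cox8b is not reported here.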

Additional observations from a re-analysis of the deposited data

Results flagged for a closer look

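Cox8b in CD44KO(HFD) liver replicate 1 had a log2 signal of -4.72, apart from the next array of its group at -4.42, with a gap of 0.722 of the group's whole range. The spread of that group was small, with a range of 0.41, and 2 of its 5 arrays were well above background, so the value lies in a range where the probe is dim. About 1 in 20 groups would stand out this way by chance.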

How the results depend on the processing

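In WAT, no setting but array weights called a member (1, Cox7a1). The number of all probes called, 11, became 35 with normexp, 19 with median scaling, 3 without the filter, 1817 with all 20 arrays in 1 fit, 4 with slide as a fixed block, 5292 with array weights and 3 with the replicate block, and 3 to 37 with each array left out. Pathway list genes called went from 0 to 9 with all 20 arrays and to 23 with array weights. Median scaling moved the median of all probes in WAT from -0.06 to 0.42 and quantile normalization to 0.11, and signs of near-zero members turned with it. Ucp1 was 0.14 with quantile normalization and 0.12 with array weights. Ppargc1a was 0.31 with quantile normalization, 0.34 with median scaling, 0.45 with array weights, 0.98 by its second probe, 0.42 by the mean of its probes and -0.31 to 0.07 with each array left out. Ucp2 was 0.11 and Prdm16 0.19 with median scaling, and Prdm16 was 0.02 with array weights. With slide as a fixed block Ucp3 was -0.08 and Ppargc1b -0.02, and Ppargc1b was -0.12 by the mean of its probes and -0.33 and -0.12 by its other probes. With each array left out Ucp3 was -0.03 to 0.21 and Dio2 -0.06 to 0.16. Median scaling subtracts a single value from each array and so moves all its probes alike. The cause of the changes under the other settings was not tested.

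In liver, the 1 member called became 0 without the filter (Ucp2 limma adjusted p = 0.0545), with the replicate block (0.0513) and by the mean of probes (0.0582), and 0 to 1 with each array left out. The probes called, 3358, became 641 with normexp, 1027 without the filter, 723 with all 20 arrays and 1329 with the replicate block, and 924 to 4695 with each array left out. The share of calls with CD44KO(HFD) higher was 57.7%, and 33.7% with normexp. The pathway list genes called, 13, became 1, 5, 4 and 8 under those 4 settings, 20 with slide as a random block, 22 with array weights, and 5 to 21 with each array left out. The counts with slide as a random block and with array weights have no share of all probes beside them. They therefore do not show a gain particular to the lists. With normexp Cox8b was 0.24 and Prdm16 -0.04, and Ppargc1a was -0.06 to 0.13 with each array left out.

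For the difference between tissues in the genotype effect, the 334 probes called became 20 with median scaling, 77 without the filter, 86 with the replicate block and 84 to 582 with each array left out, and no member was called in any of these. With normexp Ucp3 was -0.25, Dio2 -0.24 and Prdm16 -0.20. With quantile normalization Ucp1 was 0.10, Ppargc1a 0.31 and Ppargc1b 0.16, and with median scaling Ppargc1a was 0.32 and Ppargc1b 0.28. Ppargc1a was -0.32 to 0.06 with each array left out. Between tissues, Ucp1 was 0.78 in WT(HFD) (limma adjusted p = 0.0606) and -0.12 in CD44KO(HFD) with normexp, and Cox7a1 in CD44KO(HFD) was 0.06 with median scaling. The other members kept their side of the threshold and their direction under the settings tried for that comparison.

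The replicate numbers gave little sign of pairing, although such correlations cannot exclude it. Same-numbered arrays of the genotypes deviated from their group means together at r of -0.21 to 0.09 in WAT and -0.04 to 0.42 in liver, and 0 and 2 of 5 arrays were closest to their own number. For same-numbered WAT and liver arrays r was -0.19 to 0.14 in WT(HFD) and -0.06 to 0.12 in CD44KO(HFD). In each genotype 1 of 5 was closest to its own number. Whether these came from the same mouse stays unknown. Dim probes limit the values of Ucp1, Ucp3, Dio2 and Cox8b in liver.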
